A study of Saccharomyces cerevisiae with 12 samples.

Results

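Ribosome footprints, pieces of mRNA that a ribosome shields from nuclease digestion, were followed here for 9 yeast genes that oxidise ethanol, lactate and aldehydes or activate acetate. They were ALD2 (YMR170C), ALD3 (YMR169C), ALD4 (YOR374W), ALD5 (YER073W), ALD6 (YPL061W), ADH2 (YMR303C), ACS1 (YAL054C), ACS2 (YLR153C) and CYB2 (YML054C). These 9 of the 6697 genes in the count table were chosen by name and function, by a choice made when earlier results of these libraries were known. No level or fold change enters the rule, and the adjusted p-values below state only whether a difference exceeds the spread between libraries. All 9 passed the filter on low counts that left 5719 genes for testing. Since ALD2 and ALD3 share sequence, their summed counts were analysed as well.

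The cells were budding yeast of the W303 Ade+ background with the helicase Ded1 fused to the red fluorescent protein mCherry. The mutant strain carried Ded1_IDRm-mCherry and is called IDRm below, after that label, and the other strain carried Ded1-mCherry and is called WT. Duplicate pre-cultures of each strain were grown at 30 °C, and each main culture grown from them was shared out and held at 30, 40 or 42 °C for 10 min. This gave IDRm and WT groups at each temperature, 6 groups of 2 libraries. No group is a strain with untagged Ded1. No matched RNA sequencing was used here, so a change of mRNA amount and a change of ribosomes per mRNA cannot be told apart.

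Aldehyde dehydrogenases oxidise acetaldehyde to acetate in the cytosol and in mitochondria, and acetyl-CoA synthetases join that acetate to coenzyme A. On glucose the acetaldehyde comes from pyruvate by the pyruvate decarboxylases. When ethanol or lactate is the carbon source, Adh2 returns ethanol to acetaldehyde and Cyb2 returns L-lactate to pyruvate, and ADH2, ACS1 and CYB2 are textbook examples of glucose-repressed genes. Ald6 is the main cytosolic and Ald4 the main mitochondrial aldehyde dehydrogenase, Ald5 is a minor mitochondrial form, and Ald2 and Ald3 are stress-induced cytosolic forms that make beta-alanine for pantothenate and coenzyme A.

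Library totals ran between 3429950 and 7851819 counts. Levels are given as CPM, the counts of a gene scaled to a common library total, and n is 2 libraries for every group value. A level is thus relative to the other genes of its library, and so is every rise or fall given below. Footprints per cell are not measured by these counts, so a change in total translation on heating would not be seen. Calls were made where the adjusted p did not exceed 0.05, and SEs are from the fit over all genes. DED1 lay between 1052 and 1457 CPM in every library, and its count does not separate the 2 alleles. The Ade+ marker ADE2 had 137 to 526 CPM. The a-cell genes STE2, STE6, BAR1, MFA1 and MFA2 were present in every library, and of the alpha-cell genes MFALPHA1 had 0 to 6 counts, SAG1 29 to 64 and STE3 2 to 68. STE3 averaged 11.6 CPM at 40 °C and 2.74 at 30 °C in IDRm, and 13.0 CPM at 40 °C and 0.76 at 30 °C in WT. The WT libraries at 30 °C differed in heat-induced genes: CTT1, a cytosolic catalase, had 6.44 CPM in replicate 1 and 20.8 CPM in replicate 2, and HSP104, a disaggregase, had 705 and 1069 CPM. Calls that changed on leaving out one of these 2 libraries are given below with the value without it.

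The sequences that decide how far ALD2 and ALD3 can be separated are shown first. On chromosome XIII the genes lie next to each other on the minus strand, ALD3 at chrXIII:599352-600872 and ALD2 at chrXIII:601562-603082 (R64), each a coding sequence of 1521 bases in 1 exon. Their coding sequences were identical at 91.78% of aligned positions. The first 329 bases were the same in both, and 51.74% of the 28-base words of either gene occurred in the other. A footprint is about as short as such a word, so counts from the shared stretches depend on how reads with several matches were treated, which is not given in the sources used here. The first 60 coding bases, from the shared stretch, and the 60-base window with most differences (bases 1450 to 1509, 21 differences, differing bases in capitals) read as follows in the RefSeq R64 genome, which is of strain S288C.
ALD2 and ALD3, bases 1 to 60: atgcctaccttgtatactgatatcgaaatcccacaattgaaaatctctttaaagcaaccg
ALD2, bases 1450 to 1509: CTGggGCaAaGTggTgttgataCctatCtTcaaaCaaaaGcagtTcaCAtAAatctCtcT
ALD3, bases 1450 to 1509: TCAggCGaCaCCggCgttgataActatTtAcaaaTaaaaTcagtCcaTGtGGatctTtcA

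ADH2 shared 19.51% of its 28-base words with ADH1, the main fermentative alcohol dehydrogenase, with 88.83% identity over the coding sequence. ADH2 had only 0.113% to 0.166% of the counts of ADH1 in a library, so a small share of misplaced ADH1 reads would weigh on ADH2, and that share was not tested. ALD4 (chrXV:1039840-1041399, plus strand), ALD5 (chrV:304030-305592, plus), ALD6 (chrXVI:432588-434090, plus), ACS1 (chrI:42881-45022, minus), ACS2 (chrXII:445524-447575, minus) and CYB2 (chrXIII:165533-167308, minus) shared no 28-base word with another coding sequence. ADH2 lies at chrXIII:873291-874337 on the minus strand.

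The DNA upstream of the genes was read because several of them moved together. Windows of 200 bases, from 300 to 101 bases before the start codon, were searched on both strands for AGGGG, the stress element core bound by Msn2 and Msn4, for GAANNTTC and TTCNNGAA, paired units of the heat shock element bound by Hsf1, and for TTGGAG, a core bound by the activator Adr1. AGGGG occurred 1 time in each of ALD3, ALD4, ALD5, ALD6 and CYB2, and 16.25% of the 6007 gene windows of this length held it. GAANNTTC occurred in ALD2, 109 bases before the start codon, against 8.174% of all windows. TTCNNGAA was in none of the 9 windows and in 9.206% of all windows. TTGGAG occurred 3 times in CYB2 and 2 times each in ALD4 and ADH2, against 6.909% of all windows with at least 1 and 0.3163% with at least 2. In the windows of ALD4, ADH2 and CYB2 no match of one motif overlapped a match of another. Printed here, 5′ to 3′ on the coding strand with matches on either strand in capitals, are the windows of the genes with the strongest rise (ALD3, CYB2), of the paired copy ALD2 and of the other genes with TTGGAG.
ALD2, chrXIII:603183-603382, minus strand: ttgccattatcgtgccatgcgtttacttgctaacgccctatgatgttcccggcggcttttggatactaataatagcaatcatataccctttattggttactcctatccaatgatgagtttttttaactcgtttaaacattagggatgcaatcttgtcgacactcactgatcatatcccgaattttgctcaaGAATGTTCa
ALD3, chrXIII:600973-601172, minus strand: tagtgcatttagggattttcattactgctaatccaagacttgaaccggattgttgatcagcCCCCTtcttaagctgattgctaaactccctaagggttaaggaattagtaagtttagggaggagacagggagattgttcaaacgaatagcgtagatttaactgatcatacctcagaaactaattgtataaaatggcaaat
ALD4, chrXV:1039540-1039739, plus strand: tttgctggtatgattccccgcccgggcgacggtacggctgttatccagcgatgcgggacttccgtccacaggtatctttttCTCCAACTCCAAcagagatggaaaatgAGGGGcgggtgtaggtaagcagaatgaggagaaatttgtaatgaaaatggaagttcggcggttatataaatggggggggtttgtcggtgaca
ADH2, chrXIII:874438-874637, minus strand: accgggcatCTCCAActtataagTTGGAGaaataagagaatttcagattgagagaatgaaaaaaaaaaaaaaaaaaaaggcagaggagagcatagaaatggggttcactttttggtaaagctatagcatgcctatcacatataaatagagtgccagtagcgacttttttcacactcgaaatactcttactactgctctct
CYB2, chrXIII:167409-167608, minus strand: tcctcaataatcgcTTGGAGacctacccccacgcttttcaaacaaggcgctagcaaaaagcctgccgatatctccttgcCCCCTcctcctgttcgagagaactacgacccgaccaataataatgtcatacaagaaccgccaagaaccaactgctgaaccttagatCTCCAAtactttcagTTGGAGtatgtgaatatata

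At 40 °C most of the 9 genes had a higher CPM than at 30 °C, with ALD3 and CYB2 far ahead, and ALD6 had a lower CPM. At 42 °C most of these rises were smaller or gone, while ALD5 went higher still. In IDRm at 40 °C against 30 °C, 6 members rose and 1 fell, where 37.4% of all tested genes rose and 39.9% fell. In WT at 40 °C against 30 °C, 7 members rose and 1 fell, where 36.1% of all tested genes rose and 39.5% fell. The median log2 change of the members was 1.06 in IDRm and 0.59 in WT, and that of all genes was 0.01 in IDRm and −0.02 in WT. In IDRm at 42 °C against 30 °C, 4 members rose and 2 fell, beside 36.8% and 36.7% of all genes. In WT at 42 °C against 30 °C, 4 rose and 3 fell, beside 30.0% and 33.6% of all genes. Between 42 and 40 °C, 1 member (ALD5) rose and 7 fell in either strain, where in IDRm 27.3% of all genes rose and 27.0% fell, and in WT 29.8% rose and 29.4% fell. The fall of ACS2 in IDRm (−0.17) was lost in all 4 fits without 1 library, −0.20 to −0.14, and scaling by library size alone gave 0.04. The fall of ADH2 in WT (−0.66) was lost without WT replicate 1 at 42 °C (−0.44, adjusted p = 0.0605) and with scaling by library size alone (−0.35, adjusted p = 0.0589). The 40 and 42 °C comparisons of a strain share its 30 °C libraries.

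**Figure D1:**
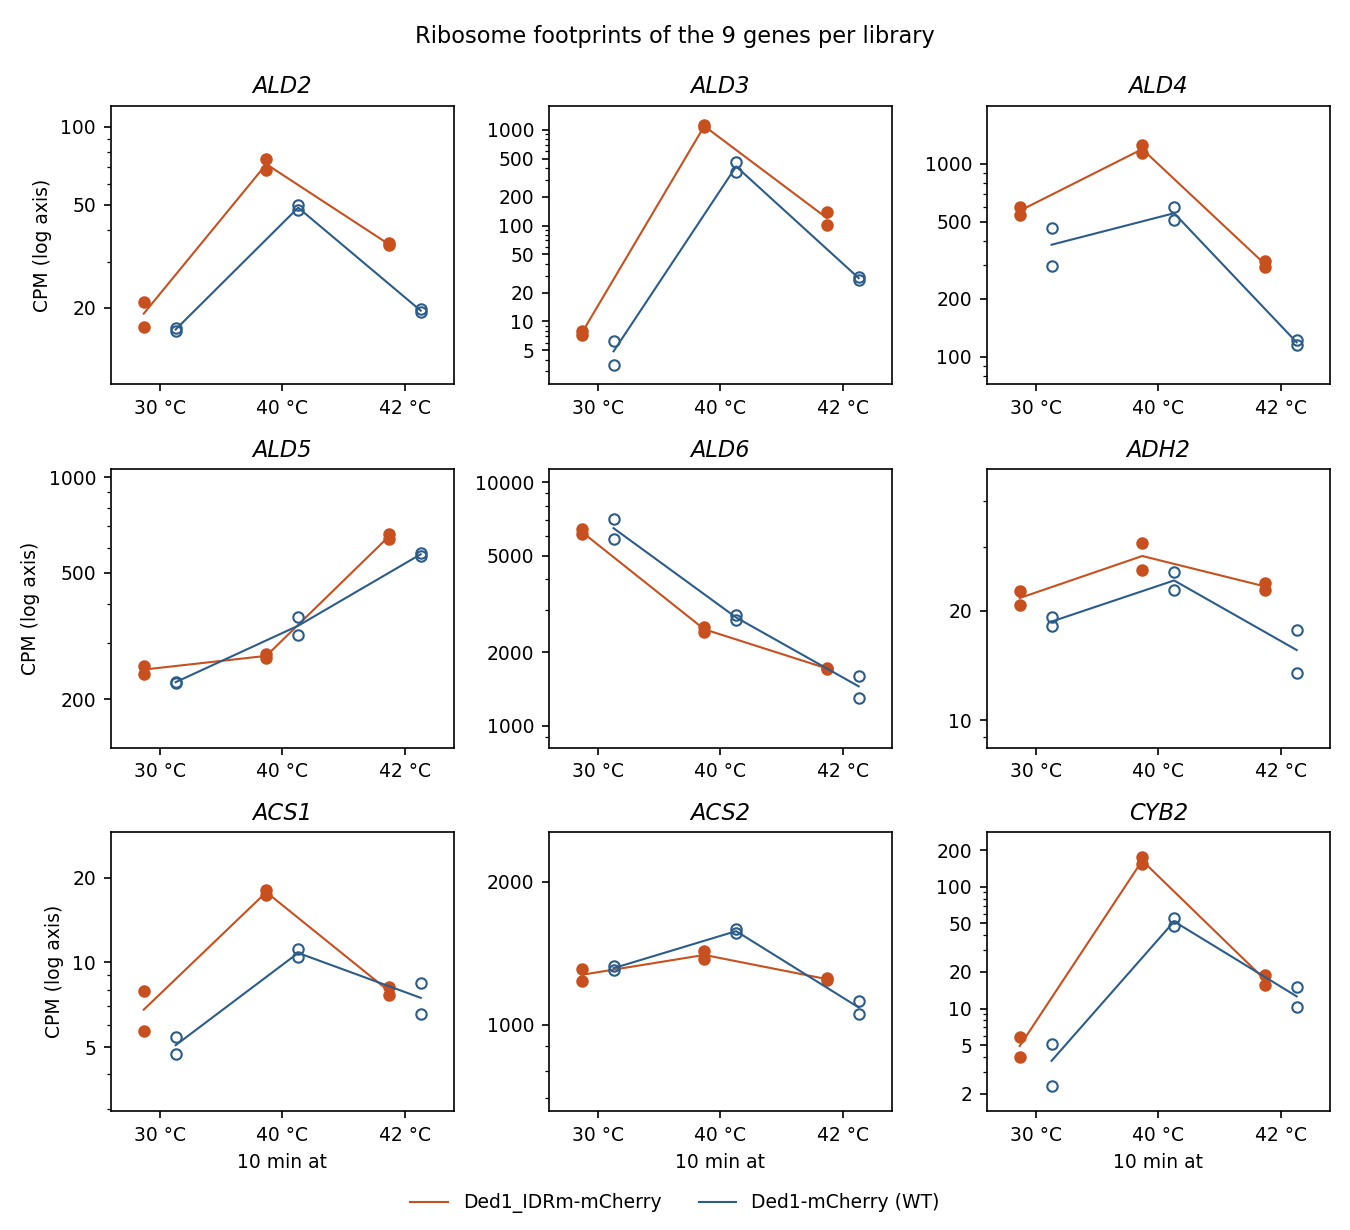
CPM on a log axis of each of the 9 genes in every library after 10 min at 30, 40 or 42 °C, with filled circles for IDRm, open circles for WT and lines through the 2-library means. ALD3 and CYB2 peak at 40 °C, higher in IDRm, ALD6 declines with temperature in both strains, and ALD5 is highest at 42 °C.

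Per kilobase of coding sequence, which makes levels comparable between genes, ALD6 stood first in all 6 groups. In WT at 30 °C the order by mean CPM per kb was ALD6 with 4312, ACS2 with 641, ALD4 with 244, ALD5 with 145, ADH2 with 17.8, ALD2 with 10.8, ALD3 with 3.20, ACS1 with 2.37 and CYB2 with 2.10. The replicate values of the last 3 overlapped, so their order is not resolved. If no read from shared stretches was counted, the length to divide by is that of the unshared bases alone, and with it ALD2 had 22.1 and ADH2 22.0 CPM per kb in that group. In WT at 40 °C ALD3 had reached the fourth place with 273 CPM per kb, between ALD4 with 356 and ALD5 with 218. In IDRm at 40 °C ALD4 with 764, ALD3 with 721 and ACS2 with 683 CPM per kb followed ALD6 with 1657, and the replicates of ALD4 and ALD3 overlapped. Over unshared bases ALD3 had 1466 CPM per kb in IDRm and 555 in WT at 40 °C, above ALD4 in both strains. At 42 °C ALD5 stood next after ALD6 and ACS2 in both strains, with 416 CPM per kb in IDRm and 366 in WT.

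ALD3, a stress-induced cytosolic aldehyde dehydrogenase, had the largest change of the 9. In IDRm it had 7.21 and 7.89 CPM at 30 °C, 1077 and 1116 at 40 °C, then 138 and 102 at 42 °C. In WT the values were 3.53 and 6.22 CPM at 30 °C, 466 and 365 at 40 °C, then 29.4 and 27.3 at 42 °C. Every heated library lay above every 30 °C library, and the IDRm libraries lay above the WT libraries at each temperature. The log2 change of 40 over 30 °C was 7.17 ± 0.20 (SE) in IDRm (edgeR quasi-likelihood test, adjusted p = 7.16e-13) and 6.55 ± 0.22 in WT (adjusted p = 8.36e-12). At 42 over 30 °C it was 3.99 ± 0.22 in IDRm and 2.69 ± 0.30 in WT. The 30 °C levels rest on only 23 to 47 counts a library.

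IDRm exceeded WT in ALD3 by 1.40 ± 0.13 on the log2 scale at 40 °C, 2.65-fold (adjusted p = 3.01e-06), and by 2.08 ± 0.18 at 42 °C, 4.22-fold (adjusted p = 8.46e-07). At 30 °C the difference was 0.78 ± 0.39 and was not called (adjusted p = 0.221), with 0.29 without WT replicate 1 and 1.10 without WT replicate 2, neither called. CTT1, another stress-induced gene, also stood higher in IDRm, with a mean of 2303 CPM in IDRm and 1251 CPM in WT at 40 °C. CTT1 averaged 498 CPM in IDRm and 113 CPM in WT at 42 °C. The heat-induced HSP104 differed less, with a mean of 32231 CPM in IDRm and 28727 CPM in WT at 40 °C. Its means at 42 °C were 17528 CPM in IDRm and 12898 CPM in WT. The part of these genes in the ALD3 differences was not tested.

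ALD2, the copy next to ALD3, changed less. It had 16.9 and 21.1 CPM at 30 °C, 68.2 and 75.4 at 40 °C, then 35.6 and 34.8 at 42 °C in IDRm. The WT libraries had 16.8 and 16.2 CPM at 30 °C, 49.8 and 47.7 at 40 °C, then 19.2 and 19.8 at 42 °C. Its log2 change at 40 over 30 °C was 1.91 ± 0.12 in IDRm (adjusted p = 2.63e-15) and 1.55 ± 0.13 in WT (adjusted p = 4.01e-12). At 42 over 30 °C it rose in IDRm by 0.88 ± 0.14, and in WT the change of 0.23 ± 0.15 was not called (adjusted p = 0.181). ALD2 was higher in IDRm than in WT by 0.56 ± 0.11 at 40 °C and by 0.85 ± 0.14 at 42 °C.

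The balance within the pair turned over with heat. ALD2 had 234% and 268% of the counts of ALD3 in IDRm at 30 °C, and 476% and 261% in WT at 30 °C. At 40 °C it had 6.33% and 6.76% of them in IDRm, and 10.7% and 13.1% in WT. ALD2 was thus the more abundant copy in each 30 °C library and the rarer one in each 40 and 42 °C library. Whether ALD3 reads counted for ALD2 contribute to the ALD2 rise was not tested.

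The summed counts of ALD2 and ALD3 do not depend on that division of reads. The sum was 24.1 and 29.0 CPM at 30 °C, 1146 and 1191 at 40 °C, then 173 and 137 at 42 °C in IDRm. In WT it was 20.3 and 22.4 CPM at 30 °C, 515 and 413 at 40 °C, then 48.6 and 47.1 at 42 °C. The log2 change of the sum at 40 over 30 °C was 5.45 ± 0.13 in IDRm and 4.46 ± 0.13 in WT. IDRm exceeded WT by 1.34 ± 0.10 at 40 °C (adjusted p = 1.23e-09) and by 1.70 ± 0.12 at 42 °C (adjusted p = 5.48e-10), and at 30 °C the difference of 0.34 ± 0.17 was not called (adjusted p = 0.203).

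ALD6, the main cytosolic form that supplies acetate during growth on glucose, moved the other way. It had 6115 and 6408 CPM at 30 °C, 2435 and 2546 at 40 °C, then 1706 and 1733 at 42 °C in IDRm. In WT it had 7084 and 5876 CPM at 30 °C, 2851 and 2717 at 40 °C, then 1300 and 1601 at 42 °C. No heated library reached a 30 °C library. At 40 over 30 °C it fell by 1.33 ± 0.09 on the log2 scale in IDRm and by 1.22 ± 0.09 in WT, and at 42 over 30 °C it fell by 1.86 ± 0.09 in IDRm and by 2.16 ± 0.09 in WT. IDRm was higher than WT at 42 °C by 0.25 ± 0.09 (adjusted p = 0.0262), a call lost on leaving out WT replicate 1 (0.10, adjusted p = 0.372), IDRm replicate 1 (0.26, adjusted p = 0.0846) or IDRm replicate 2 (0.23, adjusted p = 0.119) at 42 °C.

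ALD4, the main mitochondrial form, rose at 40 °C in IDRm and fell at 42 °C in both strains. It had 542 and 601 CPM at 30 °C, 1136 and 1249 at 40 °C, then 313 and 293 at 42 °C in IDRm. In WT the values were 466 and 296 CPM at 30 °C, 599 and 511 at 40 °C, then 123 and 115 at 42 °C. The IDRm libraries lay above the WT libraries at every temperature, and the WT libraries at 30 °C stood far apart. The log2 change at 40 over 30 °C was 1.06 ± 0.20 in IDRm (adjusted p = 0.00213) and 0.52 ± 0.20 in WT, which was not called (adjusted p = 0.0517). Without WT replicate 1 at 30 °C the WT change was 0.91, and without replicate 2 it was 0.24. The spread between these libraries does not enter such a fit, so neither fit can replace the main result. DESeq2 called the WT change with all libraries (0.57, adjusted p = 0.000118). At 42 over 30 °C ALD4 fell by 0.92 ± 0.21 in IDRm and by 1.69 ± 0.22 in WT.

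ALD4 was higher in IDRm than in WT by 1.10 ± 0.20 at 40 °C (adjusted p = 0.00765) and by 1.34 ± 0.22 at 42 °C (adjusted p = 0.00289). Without WT replicate 2 at 40 °C the first of these was 0.99 and was not called (adjusted p = 0.0655). At 30 °C the difference of 0.57 ± 0.20 was not called (adjusted p = 0.118). It was 0.96 without WT replicate 1 and 0.29 without WT replicate 2, fits that the spread between these libraries does not enter.

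ALD5, the minor mitochondrial form, was the member that was higher at 42 than at 40 °C in both strains. It had 240 and 255 CPM at 30 °C, 278 and 270 at 40 °C, then 663 and 639 at 42 °C in IDRm. The WT libraries had 225 and 227 CPM at 30 °C, 317 and 364 at 40 °C, then 566 and 578 at 42 °C. At 42 over 30 °C it rose by 1.39 ± 0.07 in IDRm and by 1.34 ± 0.07 in WT. At 40 over 30 °C it rose in WT by 0.59 ± 0.07 (adjusted p = 1.54e-08), and the change of 0.14 ± 0.07 in IDRm was not called (adjusted p = 0.0816), though it was called with RLE scaling, an alternative size factor (0.19, adjusted p = 0.0191). It was the member called lower in IDRm than in WT at 40 °C, with a log2 difference of −0.32 ± 0.07 (adjusted p = 0.00163), and without WT replicate 2 at 40 °C this was −0.22 and not called (adjusted p = 0.1). ACS2 with −0.17 ± 0.06 (adjusted p = 0.0569) and ALD6 with −0.16 ± 0.09 (adjusted p = 0.19) also had values below 0 there, without overlap of the libraries, and were not called. At 42 °C IDRm was higher by 0.19 ± 0.07 (adjusted p = 0.0319), a call lost without WT replicate 1 (0.17, adjusted p = 0.124), IDRm replicate 1 (0.16, adjusted p = 0.197) or IDRm replicate 2 (0.21, adjusted p = 0.0709).

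**Figure D2:**
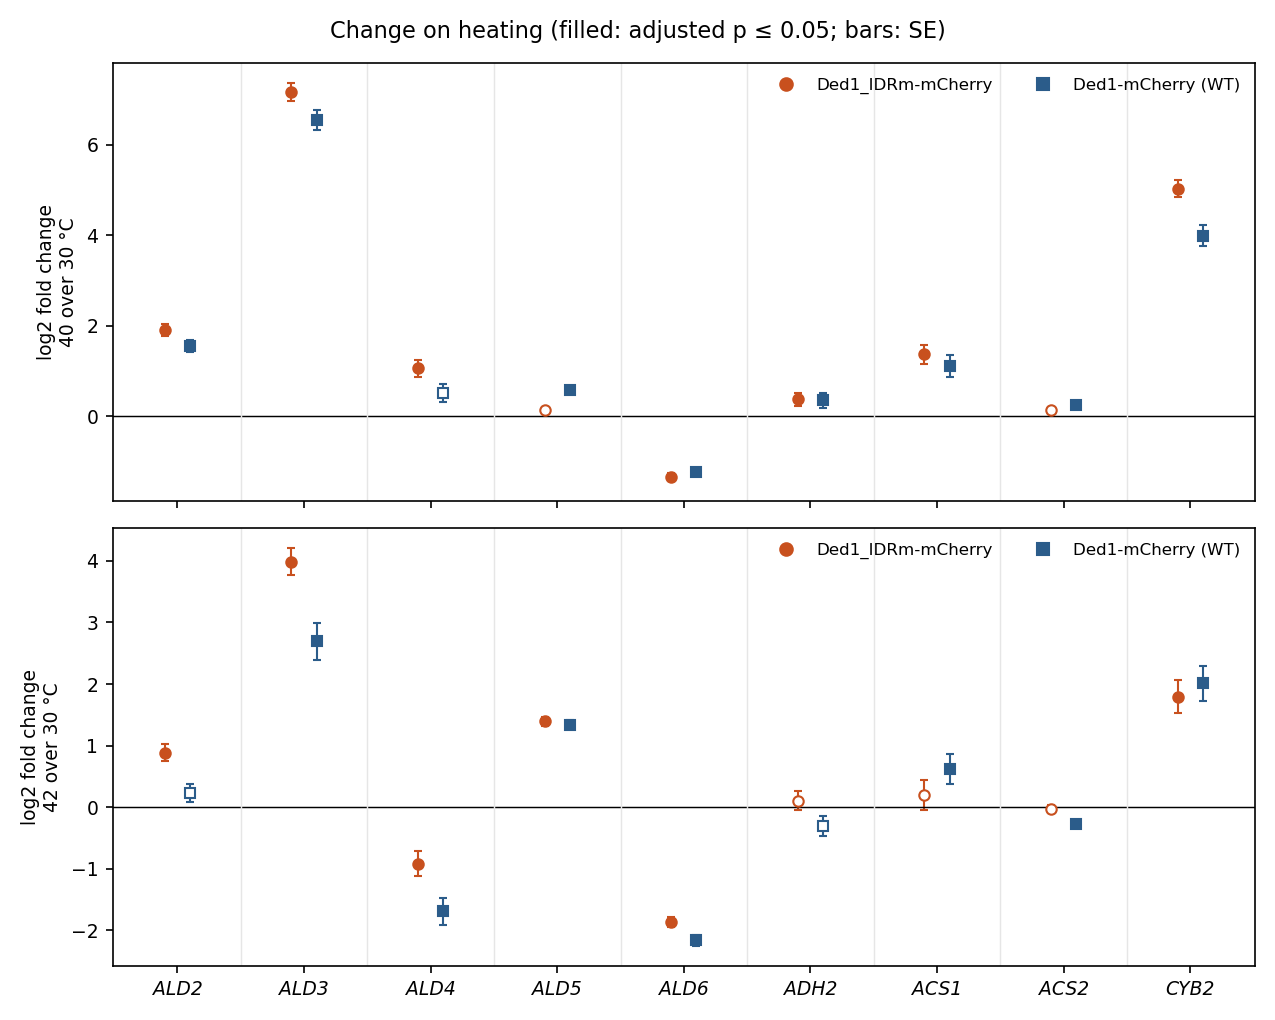
Log2 fold change of 40 over 30 °C (upper) and of 42 over 30 °C (lower) for each gene, with IDRm as circles left of WT as squares, bars for the SE and filled symbols for an adjusted p of at most 0.05. ALD3 and CYB2 have the largest rises, 7.17 and 5.03 in IDRm at 40 °C, and ALD6 lies below 0 in all 4 comparisons.

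The 5 ALD genes together, with coding lengths of 1503 to 1563 bases, had a lower summed CPM after heat and a different make-up. Their summed level in IDRm averaged 7107 ± 263 CPM at 30 °C, 5125 ± 186 at 40 °C and 2828 ± 38 at 42 °C (SD, n = 2). In WT it averaged 7109 ± 971 CPM at 30 °C, 4144 ± 197 at 40 °C and 2190 ± 216 at 42 °C (SD, n = 2). At 30 °C ALD6 made up 88.1% of the sum in IDRm and 91.2% in WT. At 40 °C its share was 48.6 ± 0.2% in IDRm and 67.2 ± 0.9% in WT, that of ALD3 was 21.4 ± 0.2% in IDRm and 10.0 ± 1.2% in WT, and that of ALD4 was 23.3 ± 0.7% in IDRm and 13.4 ± 0.9% in WT. At 42 °C ALD5 made up 23.0 ± 0.3% in IDRm and 26.2 ± 2.2% in WT. The shares of the 40 °C libraries did not overlap between the strains, and the sums and shares were not tested.

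**Figure D3:**
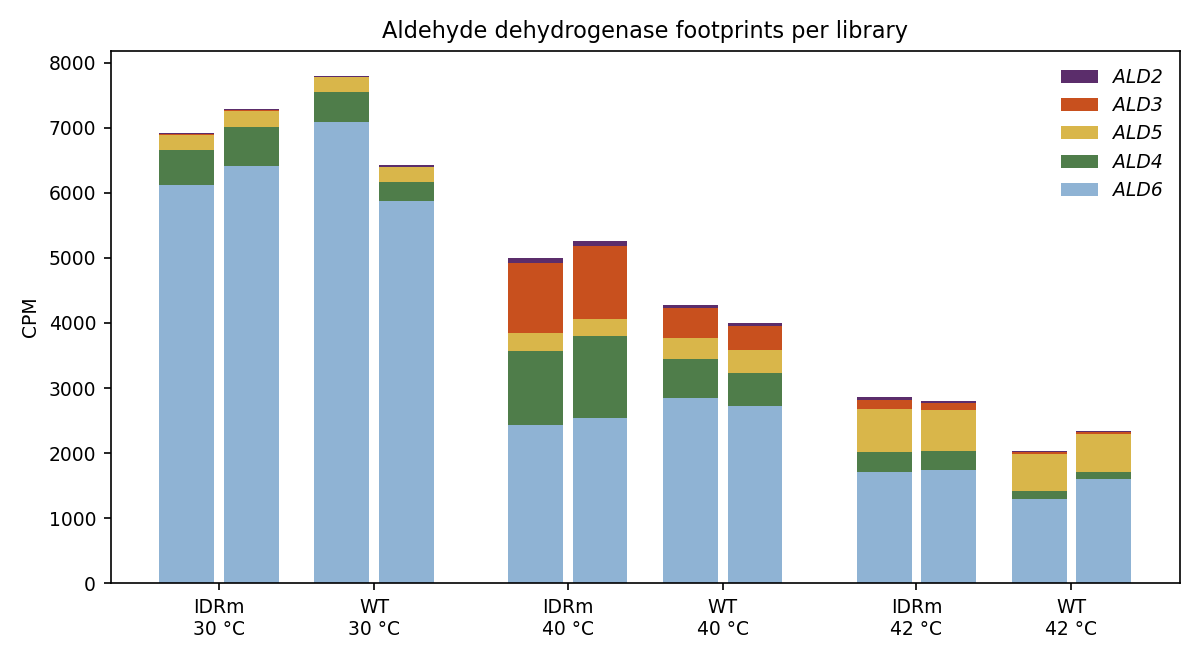
CPM of the 5 aldehyde dehydrogenase genes stacked for each library, with the 2 IDRm libraries left of the 2 WT libraries at each temperature. The stack averages 7107 CPM in IDRm at 30 °C and 2828 at 42 °C, and the ALD3 and ALD4 layers at 40 °C are thicker in IDRm than in WT.

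CYB2, the L-lactate dehydrogenase of the mitochondrial intermembrane space, came second to ALD3 in its rise. It had 3.98 and 5.87 CPM at 30 °C, 154 and 175 at 40 °C, then 19.0 and 15.6 at 42 °C in IDRm. In WT it had 2.31 and 5.14 CPM at 30 °C, 56.0 and 47.9 at 40 °C, then 14.9 and 10.3 at 42 °C. At 40 °C the strains did not overlap, whereas at 30 °C they did. The log2 change of 40 over 30 °C was 5.03 ± 0.18 in IDRm (adjusted p = 7.26e-19) and 3.99 ± 0.23 in WT (adjusted p = 2.35e-14). At 42 over 30 °C it was 1.80 ± 0.26 in IDRm and 2.01 ± 0.29 in WT. Both WT libraries at 30 °C had 19 counts, and without replicate 1 the WT changes were 3.32 at 40 °C and 1.34 at 42 °C, both still called.

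CYB2 was 3.18-fold higher in IDRm than in WT at 40 °C (log2 1.67 ± 0.13, adjusted p = 2.28e-10). At 42 °C the difference was 0.42 ± 0.21 and was not called (adjusted p = 0.128), and it was 0.76 without WT replicate 1 at 42 °C. At 30 °C it was 0.63 ± 0.36 (adjusted p = 0.257), and it was −0.04 without WT replicate 1 and 1.10 without WT replicate 2, neither called.

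ACS1, the glucose-repressed acetyl-CoA synthetase, was among the rarest members. It had 5.69 and 7.89 CPM at 30 °C, 18.1 and 17.4 at 40 °C, then 7.65 and 8.17 at 42 °C in IDRm. In WT the values were 4.74 and 5.41 CPM at 30 °C, 11.1 and 10.5 at 40 °C, then 8.43 and 6.53 at 42 °C. At 40 over 30 °C it rose by 1.37 ± 0.21 in IDRm (adjusted p = 4.78e-07) and by 1.11 ± 0.24 in WT (adjusted p = 0.000133). At 42 over 30 °C the change in IDRm was 0.21 ± 0.24 (adjusted p = 0.45), and the rise of 0.62 ± 0.25 in WT (adjusted p = 0.028) was lost without WT replicate 1 at 30 °C (0.50, adjusted p = 0.224) or WT replicate 1 at 42 °C (0.39, adjusted p = 0.324). IDRm exceeded WT at 40 °C by 0.72 ± 0.20 (adjusted p = 0.00775). That call was lost without WT replicate 2 (0.67, adjusted p = 0.0874) or IDRm replicate 1 (0.69, adjusted p = 0.0586) at 40 °C.

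ACS2, the acetyl-CoA synthetase used on glucose, was abundant and moved little. It had 1235 and 1311 CPM at 30 °C, 1372 and 1430 at 40 °C, then 1240 and 1253 at 42 °C in IDRm. The WT libraries had 1328 and 1301 CPM at 30 °C, 1559 and 1586 at 40 °C, then 1053 and 1120 at 42 °C. In WT it rose at 40 over 30 °C by 0.26 ± 0.06 and fell at 42 over 30 °C by 0.28 ± 0.06. In IDRm the changes of 0.14 ± 0.06 at 40 °C (adjusted p = 0.0514) and −0.03 ± 0.06 at 42 °C were not called, the first being called by DESeq2 (0.19, adjusted p = 0.0177). With scaling by library size alone the WT change at 40 °C was 0.02 and not called. IDRm was higher than WT at 42 °C by 0.20 ± 0.07 (adjusted p = 0.014), a call lost without WT replicate 1 (0.15, adjusted p = 0.101), IDRm replicate 1 (0.20, adjusted p = 0.065) or IDRm replicate 2 (0.19, adjusted p = 0.0916). ACS1 had 0.357% to 1.32% of the counts of ACS2 in a library, with the highest 2 values in IDRm at 40 °C.

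ADH2, the glucose-repressed alcohol dehydrogenase that oxidises ethanol, had small changes. It had 20.7 and 22.7 CPM at 30 °C, 25.9 and 30.6 at 40 °C, then 23.8 and 22.8 at 42 °C in IDRm. In WT it had 19.2 and 18.1 CPM at 30 °C, 25.6 and 22.8 at 40 °C, then 13.5 and 17.7 at 42 °C. The rise at 40 over 30 °C was 0.38 ± 0.15 in IDRm (adjusted p = 0.0209) and 0.35 ± 0.16 in WT (adjusted p = 0.0399). The IDRm call was lost without IDRm replicate 1 at 30 °C (0.31, adjusted p = 0.121) or replicate 2 at 40 °C (0.25, adjusted p = 0.237). The WT call was lost without WT replicate 1 (0.41, adjusted p = 0.0861) or 2 (0.31, adjusted p = 0.0984) at 30 °C, or replicate 1 at 40 °C (0.27, adjusted p = 0.202). DESeq2 called neither rise, nor did scaling by library size alone, which gave 0.15 in IDRm and 0.12 in WT. IDRm exceeded WT at 42 °C by 0.62 ± 0.16 (adjusted p = 0.00257), and without WT replicate 1 at 42 °C by 0.40 (adjusted p = 0.129). ADH1, which shares sequence with it, rose at 40 over 30 °C by 0.59 ± 0.08 in IDRm and by 0.63 ± 0.08 in WT. ADH1 was also called higher in IDRm than in WT at 42 °C, with 14639 and 15835 CPM in IDRm and 10781 and 13425 CPM in WT. The part of ADH1 reads in the ADH2 differences was not tested.

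Set against each other at one temperature, IDRm and WT differed past the threshold in 0 members at 30 °C, 6 at 40 °C and 7 at 42 °C. At 30 °C no member was called by edgeR in either direction, where 9.58% of all genes were higher and 6.75% lower in IDRm. At an unadjusted p under 0.05 there was 1 member, ALD4, and DESeq2 also called ALD4. At 40 °C 5 members (ALD2, ALD3, ALD4, ACS1 and CYB2) were higher in IDRm and 1 (ALD5) was lower, where 11.4% of all genes were higher and 14.5% lower. At 42 °C 7 members were higher in IDRm and 0 lower, where 20.4% of all genes were higher and 20.7% lower, and ACS1 and CYB2 were not called. Without WT replicate 2 at 40 °C the 6 calls of that temperature became 3, and leaving out IDRm replicate 1 or IDRm replicate 2 at 42 °C left 4 calls of the 7. Without WT replicate 1 at 42 °C there were also 4 calls, ALD2, ALD3, ALD4 and CYB2, of which CYB2 was not among the 7. DESeq2 and scaling by library size alone each called 4 members at 42 °C, without ALD5, ALD6 and ACS2.

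**Figure D4:**
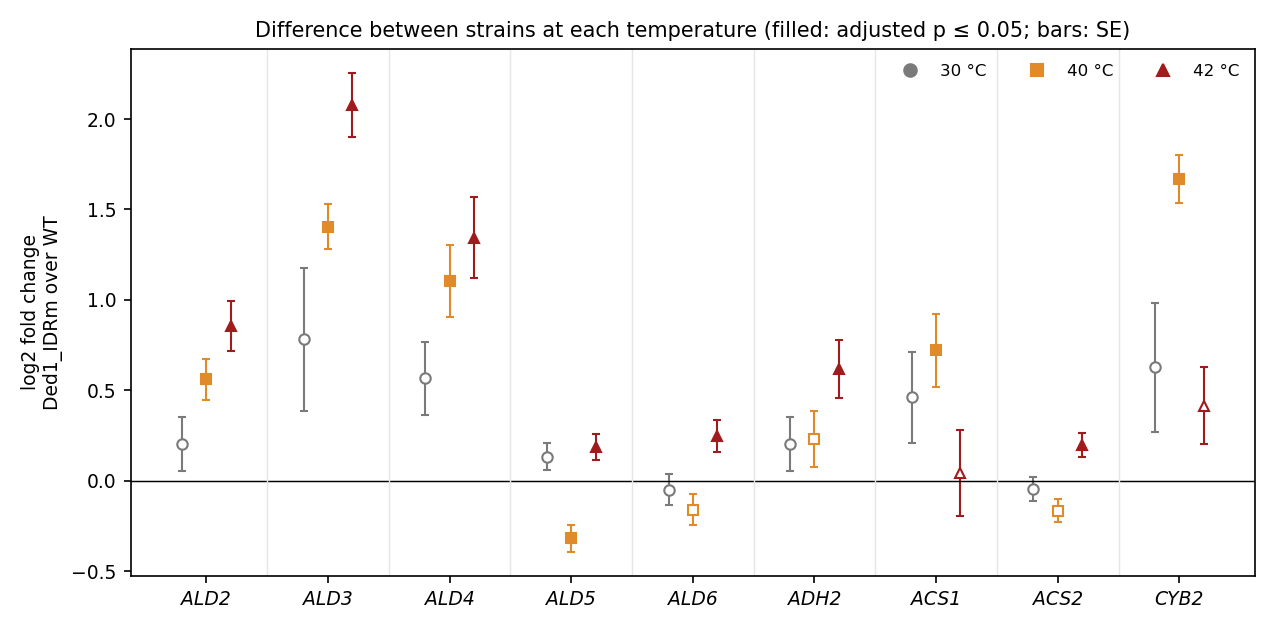
Log2 fold change of IDRm over WT for each gene at 30 °C (circles), 40 °C (squares) and 42 °C (triangles), with bars for the SE and filled symbols for an adjusted p of at most 0.05. ALD3 lies at 1.40 at 40 °C and 2.08 at 42 °C, CYB2 at 1.67 at 40 °C, and no symbol is filled at 30 °C.

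Whether the response to heat itself differed between the strains was tested as the change in IDRm minus the change in WT. For the summed counts of ALD2 and ALD3 this difference was called, with 1.00 ± 0.20 on the log2 scale at 40 °C (adjusted p = 0.00156) and 1.36 ± 0.21 at 42 °C (adjusted p = 6.08e-05). ALD2 was the larger part of the sum at 30 °C and ALD3 at 40 and 42 °C, so the value of the sum is not the response of either gene. At 40 °C neither gene alone was called, ALD3 having 0.62 ± 0.43 (adjusted p = 0.417) and ALD2 0.36 ± 0.19 (adjusted p = 0.247), both below the value of the sum. Of the 9 members 1 was called at 40 °C, ALD5 with −0.45 ± 0.11 (adjusted p = 0.00305), where 3.81% of all genes had a higher and 8.52% a lower response in IDRm. Without WT replicate 2 at 40 °C the ALD5 value was −0.35 and not called (adjusted p = 0.0549). CYB2 had 1.04 ± 0.40 and was not called (adjusted p = 0.0886), though DESeq2 called it (1.08, adjusted p = 0.0463). Without WT replicate 1 at 30 °C CYB2 had 1.71, and without WT replicate 2 at 30 °C it had 0.57. ALD4 had 0.54 ± 0.28 (adjusted p = 0.31), with 0.15 without WT replicate 1 at 30 °C and 0.82 without WT replicate 2. DESeq2 called ALD4 here (0.54, adjusted p = 0.0496).

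At 42 °C, 2 members were called with a higher response in IDRm, ALD2 with 0.65 ± 0.20 (adjusted p = 0.0168) and ACS2 with 0.25 ± 0.09 (adjusted p = 0.0449), where 11.4% of all genes had a higher and 16.1% a lower response. The ALD2 call was lost without WT replicate 1 at 30 °C (0.61, adjusted p = 0.0933), WT replicate 1 at 42 °C (0.62, adjusted p = 0.0572) or IDRm replicate 1 at 30 °C (0.50, adjusted p = 0.112), and DESeq2 gave 0.59 (adjusted p = 0.116). The ACS2 call was lost in 6 of the 8 fits that left out 1 library, all but those without WT replicate 2 at 30 or 42 °C, and the 8 gave 0.20 to 0.29, with 0.22 without WT replicate 1 at 30 °C (adjusted p = 0.11). ALD3 had 1.30 ± 0.45 (adjusted p = 0.0525), and leaving out 1 library gave 0.98 to 1.79 with 3 of 8 fits calling it (without WT replicate 1 at 30 °C or either IDRm replicate at 42 °C), as did DESeq2 (1.25, adjusted p = 0.00129). ALD4 had 0.78 ± 0.30 (adjusted p = 0.107), with 0.39 without WT replicate 1 and 1.05 without WT replicate 2 at 30 °C. DESeq2 called ALD4 here (0.71, adjusted p = 0.00361). ALD6 had 0.30 ± 0.12 and was not called (adjusted p = 0.0755). It had 0.42 without WT replicate 2 at 30 °C, 0.45 without WT replicate 2 at 42 °C and 0.15 without WT replicate 1 at 30 °C.

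The genes whose log2 CPM over the 12 libraries ran most closely with each member were sought among the 3976 genes that averaged 20 CPM or more. These correlations describe shared changes with temperature and strain and carry no test. ALD3 ran with YGP1 (Pearson r = 0.996) and GOR1 (0.995), and ALD2 with YPT52 (0.993) and TDH1 (0.992). CYB2 ran with GND2 (0.989), the minor 6-phosphogluconate dehydrogenase, and TKL2 (0.987), the minor transketolase. ALD6 ran with CKA2 (0.991) and LSM1 (0.983), ALD4 with APE2 (0.978) and LSO2 (0.976), and ALD5 with ERG29 (0.975) and the histone H3 gene HHT1 (0.964). ACS1 ran with CYB2 (0.968) and YPS6 (0.952), ACS2 with LPD1 (0.973) and ENO2 (0.972), and ADH2 with TRR1 (0.962) and CWP2 (0.961). Among the members, r was 0.977 for ALD3 with CYB2 and −0.872 for ALD5 with ALD6.

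Of 13 genes of the glyoxylate cycle, gluconeogenesis and acetyl-unit transport, which carry acetate carbon onward, 12 rose and 0 fell at 40 over 30 °C in either strain, where MLS1 was not called in IDRm and ICL1 was not called in WT. Of all genes 37.4% rose and 39.9% fell in IDRm, and 36.1% rose and 39.5% fell in WT. The median log2 change of the 13 was 1.63 in IDRm and 1.73 in WT. Several of the 13 were near the floor at 30 °C, where SFC1 averaged 1.52 CPM in IDRm and 0.51 in WT. There CRC1 averaged 2.52 CPM in IDRm and 0.98 in WT, and MLS1 2.25 in IDRm and 1.69 in WT. The shares over all genes are not matched for level. CIT2, the peroxisomal citrate synthase, had a mean of 897 CPM at 40 °C and 210 at 30 °C in IDRm, and 884 CPM at 40 °C and 150 at 30 °C in WT. ACH1, which moves coenzyme A between acetate and succinate, rose by 2.93 ± 0.10 in IDRm and by 2.37 ± 0.10 in WT, and its response was larger in IDRm by 0.57 ± 0.14 (adjusted p = 0.00547). SFC1, a mitochondrial succinate-fumarate carrier, rose by 1.72 ± 0.39 in IDRm and by 3.03 ± 0.50 in WT from under 2 CPM at 30 °C. CRC1, the mitochondrial carnitine carrier, rose by 1.63 ± 0.35 in IDRm and by 2.11 ± 0.51 in WT. At 42 over 30 °C, 11 of the 13 rose in either strain, and 0 fell in IDRm and 1, MDH2, in WT, beside 36.8% of all genes that rose and 36.7% that fell in IDRm, and 30.0% and 33.6% in WT.

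Of 10 genes for transport and regulation, 7 rose and 2 (ATO3 and the glucose repressor gene MIG1) fell at 40 over 30 °C in either strain, beside 37.4% of all genes that rose and 39.9% that fell in IDRm, and 36.1% and 39.5% in WT. SIP4, an activator of gluconeogenic genes, rose by 4.91 ± 0.18 in IDRm and by 5.07 ± 0.18 in WT. CAT8, which encodes another activator of these genes, rose by 3.45 ± 0.15 in IDRm and by 2.88 ± 0.15 in WT. ADR1, the activator of ADH2, had a mean of 353 CPM at 40 °C and 86.4 at 30 °C in IDRm, and 163 CPM at 40 °C and 30.3 at 30 °C in WT. ADR1 was thus higher in IDRm by 1.46 ± 0.12 at 30 °C (adjusted p = 9.58e-11) and by 1.12 ± 0.09 at 40 °C (adjusted p = 4.37e-11). The transporter gene ATO2 rose by 1.87 ± 0.22 in IDRm and by 2.26 ± 0.27 in WT.

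JEN1, the lactate transporter gene, was singled out after its values were seen, because lactate uptake precedes the step of CYB2. It had 34.0 and 26.9 CPM in IDRm and 11.1 and 10.9 CPM in WT at 40 °C, and 2.47 and 1.51 CPM in IDRm and 2.92 and 4.87 CPM in WT at 30 °C. Its response at 40 °C was larger in IDRm by 2.32 ± 0.44 on the log2 scale (adjusted p = 0.000289). The 30 °C levels of JEN1 rest on only 13 and 9 counts in IDRm and 24 and 18 in WT. Libraries of the strains overlapped at 42 °C, with 8.52 and 11.3 CPM in IDRm and 8.43 and 10.7 CPM in WT.

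Of 14 other alcohol, aldehyde and lactate dehydrogenases and pyruvate decarboxylases, 7 rose and 3 fell at 40 over 30 °C in either strain, where 37.4% of all genes rose and 39.9% fell in IDRm, and 36.1% and 39.5% in WT. PDC6, the minor pyruvate decarboxylase, rose by 2.36 ± 0.31 in IDRm and by 2.53 ± 0.28 in WT. HFD1, a fatty aldehyde dehydrogenase, rose by 1.75 ± 0.10 in IDRm and by 1.52 ± 0.10 in WT. ADH7, an NADPH-dependent alcohol dehydrogenase, rose by 0.78 ± 0.26 in IDRm and by 1.40 ± 0.25 in WT. DLD3, a D-lactate dehydrogenase of the cytosol, fell by 1.56 ± 0.07 in IDRm and by 1.09 ± 0.07 in WT, a difference of −0.47 ± 0.10 (adjusted p = 0.00108).

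Of 4 genes of beta-alanine and pantothenate synthesis, the pathway that Ald2 and Ald3 supply, 1 rose and 2 fell at 40 over 30 °C in IDRm, and 2 rose and 2 fell in WT. Those counts lie near the shares over all genes, 37.4% higher and 39.9% lower in IDRm and 36.1% higher and 39.5% lower in WT. FMS1, the polyamine oxidase whose product Ald2 and Ald3 oxidise, rose by 1.43 ± 0.11 in IDRm and by 1.55 ± 0.12 in WT. PAN5 fell by 0.68 ± 0.10 in IDRm and by 0.67 ± 0.09 in WT, and PAN6 fell by 0.70 ± 0.11 in IDRm and by 0.49 ± 0.11 in WT. ECM31 had a change of 0.28 ± 0.13 in IDRm, which was not called (adjusted p = 0.0551), and rose by 0.30 ± 0.13 in WT.

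**Figure D5:**
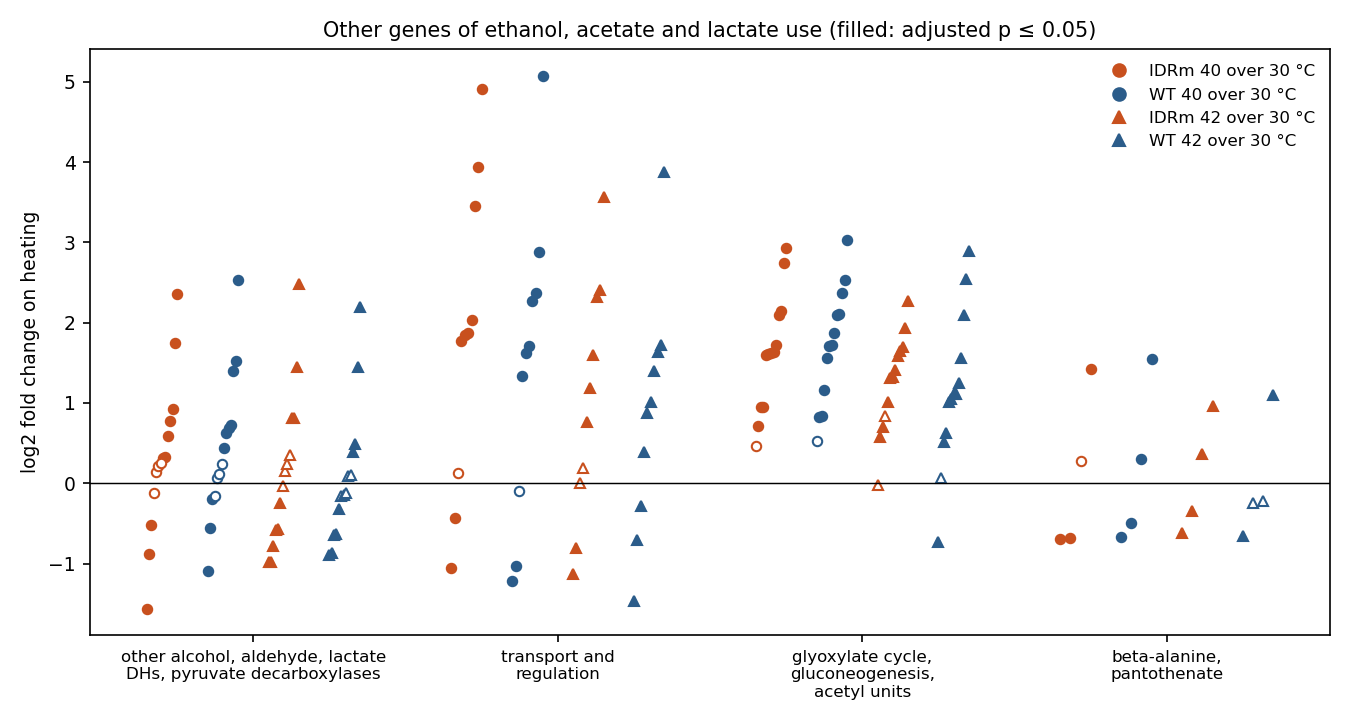
Log2 fold change on heating of the genes in the 4 other lists, 1 symbol per gene, with circles for 40 over 30 °C, triangles for 42 over 30 °C, IDRm left of WT and filled symbols for an adjusted p of at most 0.05. In the glyoxylate cycle and gluconeogenesis list 12 of 13 circles of either strain are filled and above 0.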

How the data were processed

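Ribosome footprints were sequenced from 12 yeast libraries. The authors deposited raw counts per gene, 1 column per library. Genome R64 and the tools STAR 2.5.2b, Bowtie2 2.2.6, cutadapt 1.17 and bcl2fastq 2.17.1.14 are listed per the submitters' processing notes. Their roles, the counting rule and the strand setting were not given in the sources used. Of 6697 gene identifiers, 6014 were found in the R64 annotation.

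All 12 libraries entered 1 edgeR 4.0.16 quasi-likelihood fit (R 4.3.3, limma 3.58.1, TMM scaling with factors of 0.8706 to 1.136, a mean per group, robust spread) after a filter with a minimum count of 10 and total of 15. This left 5719 genes, over which p-values were Benjamini-Hochberg adjusted. Approximate SEs were the log2 change divided by the square root of F. Residual degrees of freedom were 6 and prior ones 25.49 (median). The code of the fit was run on counts simulated from its own gene means and spreads, with changes put into some genes of 1 group. Such a run checks the code alone, and neither the spread of these libraries nor the differences in response between strains. For the sum, the ALD2 and ALD3 rows were replaced by 1 row. Replicates came from duplicate pre-cultures.

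The members and all lists, tests and motifs were chosen with earlier results of these data known. All members are named. Of each other list up to 4 genes are named, those with the largest change among the genes called in WT at 40 against 30 °C, and ADH1. JEN1 was added after its values were seen, and ATO3, MIG1, MLS1, ICL1 and MDH2 are named as exceptions within a count. DED1, ADE2, HSP104, CTT1 and mating-type genes served as label checks. The patterns most alike were ranked by Pearson r of log2 CPM (prior count 2) among genes that averaged 20 CPM or more. Shared sequence was measured as 28-base words of R64 coding sequences. Motifs were sought in 200 bases that leave out the 100 bases next to the start codon. The genome of the strain used was not used here.

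Alternatives were DESeq2 1.42.0, RLE or library-size scaling, no filter, the libraries of the contrast alone, a replicate block, a 2-fold minimum and leaving out each library. A group left with a single library adds no spread of its own to the fit, so calls gained there show the size of a change only.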

Additional observations from a re-analysis of the deposited data

Results flagged for a closer look

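Each result here is a change on heating that differed between the strains by the test of the difference itself, the log2 change in IDRm minus that in WT, with edgeR's quasi-likelihood test adjusted over all genes. For ALD2 and ALD3 summed, the difference was 1.00 at 40 over 30 °C (adjusted p = 0.00156) and 1.36 at 42 over 30 °C (adjusted p = 6.08e-05), and leaving out each of the 8 libraries in turn gave 0.84 to 1.16 and 1.18 to 1.51, called each time. ALD2 was the larger part of the sum at 30 °C and ALD3 at 40 and 42 °C, so the value of the sum is not the response of either gene. At 40 over 30 °C neither gene alone was called (ALD3 0.62, adjusted p = 0.417, and ALD2 0.36, adjusted p = 0.247), and both values lie below that of the sum. For ALD2 alone it was 0.65 at 42 over 30 °C, and leaving out 1 library gave 0.50 to 0.83, with the call lost in 3 of 8 fits. DESeq2 did not call ALD2 (0.59, adjusted p = 0.116). For ACS2 the difference was 0.25 at 42 over 30 °C, and leaving out 1 library gave 0.20 to 0.29, with the call lost in 6 of 8 fits. DESeq2 did not call ACS2 (0.19, adjusted p = 0.202). For ALD5 the difference was −0.45 at 40 over 30 °C, the opposite direction, and leaving out 1 library gave −0.55 to −0.35, with the call lost in 1 of 8 fits.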

How the results depend on the processing

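For the members and the ALD2 and ALD3 sum there were 1370 values under the alternatives, over 110 results. Of these values 1223 kept their direction and their side of the threshold, and 20 more, not called in either fit, changed sign. Of the 110 results, 42 had at least 1 changed call. ACS2 in IDRm at 42 against 40 °C was −0.17 and turned to 0.0447 with scaling by library size alone. Requiring a 2-fold minimum left 5 members of 8 in WT at 40 against 30 °C, 4 of 8 in WT at 42 against 40 °C, 3 of 6 between strains at 40 °C, 2 of 7 at 42 °C and 0 of the differences in response at 40 and at 42 °C, where the sum of ALD2 and ALD3 at 40 °C also fell short. DESeq2 called 1 member between strains at 30 °C in place of 0, 4 in place of 7 at 42 °C, and 3 differences in response in place of 1 at 40 °C. At 42 °C DESeq2 also called 2 differences in response, but those of ALD3 and ALD4 in place of ALD2 and ACS2. Library size alone called 4 between strains at 42 °C, and 1 difference in response at 42 °C in place of 2, as did RLE scaling and no filter. The cause was not tested.

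Leaving out 1 library gave 6 to 7 called members in IDRm and 7 to 8 in WT at 40 against 30 °C, 6 in IDRm and 6 to 8 in WT at 42 against 30 °C, and 7 in IDRm and 8 in WT at 42 against 40 °C. Between strains it gave 0 to 1 at 30 °C (1 without WT replicate 1 or 2), 3 to 6 at 40 °C and 4 to 7 at 42 °C. The differences in response numbered 0 to 2 at 40 °C (0 without WT replicate 2 at 40 °C, 2 without either WT replicate at 30 °C) and 0 to 4 at 42 °C (4 without WT replicate 2 at 30 °C, 1 without IDRm replicate 2 at 30 °C, 0 without WT replicate 1 at 42 °C or IDRm replicate 1 at 30 °C).

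Same-numbered libraries did not deviate together: their correlations over genes lay between −0.09 and 0.15 over 15 pairs of groups, so the numbers were not taken to pair the samples. With the replicate number as a block, 8 members were called in IDRm and 7 in WT at 40 against 30 °C, and with a block within each strain 2 differences in response were called at 40 °C in place of 1, with ALD4 added (0.51, adjusted p = 0.0151), and at 42 °C ALD3 (1.27, adjusted p = 0.0115) and ALD4 (0.76, adjusted p = 0.000403) were added and ACS2 (0.25, adjusted p = 0.0581) was lost. The same block added ALD4 in WT at 40 against 30 °C (0.56, adjusted p = 3.37e-05).

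Scaling by library size alone moved the median of all genes by −0.23 in IDRm and −0.24 in WT at 40 over 30 °C, by 0.21 in IDRm and 0.31 in WT at 42 over 40 °C, and by −0.11 between strains at 42 °C. The share of calls that were higher became 37.2% in place of 47.7% in WT at 40 over 30 °C, 69.6% in place of 50.3% in IDRm and 74.0% in place of 50.3% in WT at 42 over 40 °C, 33.9% in place of 49.6% between strains at 42 °C, and 29.3% in place of 41.4% for the difference in response at 42 °C. With 19 to 47 counts a library for ALD3, CYB2 and ACS1 at 30 °C, counting error bears on their fold changes.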
